A study of Mus musculus with 12 samples.

Results

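Levels of 10 heat shock chaperone genes, of the 50600 genes in the count table, were followed through sorted cells of the mouse dentate gyrus. They were Hspa1a, Hspa1b, Hspa8, Hspa5, Hsp90aa1, Hsp90ab1, Hspb1, Hsph1, Dnajb1 and Hspa4. They were listed by name with earlier results of these data known, the rule itself used no measured value, and all 10 had a row in the table. The question was whether their levels, as a stress response separate from the early response transcription factors such as Fos, differed between 3 cell types. The cells came from adult Nestin-GFP mice of 6 to 9 weeks, a strain in which regulatory elements of the nestin gene drive green fluorescent protein, and every group carried this reporter with no treatment or further allele named. Dentate gyri were cut out and digested with papain, dispase and DNase at 37 °C for 20 min. The cells were stained on ice for 30 min, and sorted live cells were negative for CD31, CD45, O1 and O4, which mark endothelial, immune and oligodendrocyte lineage cells. Stem cells were positive for both GFP and the astroglial transporter GLAST, progenitors for GFP alone, and astrocytes for GLAST alone. There were 4 libraries of each cell type, called astrocyte a to d, progenitor a to d and stem cell 1 to 4, each made from 50 sorted cells by polyA priming and cDNA preamplification. The study calls them biological replicates and describes a single mouse brain as enough for each, but which libraries came from the same mouse is not given in the sources used here.

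Chaperones bind unfolded protein and help it to fold, to refold after stress or to be handed on for degradation. HSP70 proteins hold short exposed stretches in a cycle of ATP binding and hydrolysis that J-domain proteins such as Dnajb1 start and that nucleotide exchange factors such as Hsph1 and Hspa4 reset, and HSP90 completes the folding of many kinases and receptors. Hspa8, Hsp90ab1 and Hspa4 are made in unstressed cells, whereas Hspa1a, Hspa1b, Dnajb1, Hsph1, Hspb1 and to a lesser degree Hsp90aa1 are induced by heat shock factor 1, which binds inverted repeats of the 5 bases NGAAN. Hspa5, also known as BiP, is the HSP70 of the endoplasmic reticulum and is induced by the unfolded protein response rather than by heat shock. In brain tissue the inducible HSP70 genes are known to respond to warming, ischaemia and handling of the tissue.

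The promoters show which of these genes carry the letters of either response. RefSeq windows on GRCm38.p6, from 250 bases before to 50 bases after an annotated start, were found for 7 of the 10 genes, and Hspa8, Hsp90aa1 and Hsp90ab1 had no entry. The search was for a pair of inverted heat shock units (GAANNTTC or TTCNNGAA, each its own reverse complement, so both strands were covered), which 15.1% of 32851 such windows of all genes hold, for 3 units in alternating orientation at the same spacing, which include 2 overlapping pairs (0.603% of windows), and for the endoplasmic reticulum stress element, CCAAT followed after 9 bases of any kind by CCACG on either strand (0.119%). The windows of Hspa1a (chr17:34972107-34972406, minus strand) and Hspa1b (chr17:34959189-34959488, minus strand) are shown because these neighbouring genes differed in their counts, that of Hspb1 (chr5:135887669-135887968, plus strand) and that of Hspa5 (chr2:34771840-34772139, plus strand) as carriers of either kind of element, and that of Dnajb1 (chr8:83607925-83608224, plus strand) because the libraries of Dnajb1 did not overlap between any pair of cell types. Capitals mark heat shock pairs, and in Hspa5 the endoplasmic reticulum stress element.
Hspa1a: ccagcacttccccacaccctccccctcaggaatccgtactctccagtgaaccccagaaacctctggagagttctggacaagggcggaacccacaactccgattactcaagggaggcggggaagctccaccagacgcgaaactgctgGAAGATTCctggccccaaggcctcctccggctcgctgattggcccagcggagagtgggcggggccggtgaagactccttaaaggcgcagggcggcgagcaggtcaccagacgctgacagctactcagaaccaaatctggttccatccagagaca
Hspa1b: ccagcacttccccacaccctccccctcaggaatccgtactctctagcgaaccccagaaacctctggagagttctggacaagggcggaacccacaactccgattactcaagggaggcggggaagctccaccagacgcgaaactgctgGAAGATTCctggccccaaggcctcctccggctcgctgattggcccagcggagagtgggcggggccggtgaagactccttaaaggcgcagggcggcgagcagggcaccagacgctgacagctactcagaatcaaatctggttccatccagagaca
Hspb1: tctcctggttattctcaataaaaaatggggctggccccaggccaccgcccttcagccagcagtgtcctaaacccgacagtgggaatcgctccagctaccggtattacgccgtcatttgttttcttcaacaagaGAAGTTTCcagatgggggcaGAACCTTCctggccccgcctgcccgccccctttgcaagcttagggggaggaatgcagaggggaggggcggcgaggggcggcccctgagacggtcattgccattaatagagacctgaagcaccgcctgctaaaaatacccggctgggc
Hspa5: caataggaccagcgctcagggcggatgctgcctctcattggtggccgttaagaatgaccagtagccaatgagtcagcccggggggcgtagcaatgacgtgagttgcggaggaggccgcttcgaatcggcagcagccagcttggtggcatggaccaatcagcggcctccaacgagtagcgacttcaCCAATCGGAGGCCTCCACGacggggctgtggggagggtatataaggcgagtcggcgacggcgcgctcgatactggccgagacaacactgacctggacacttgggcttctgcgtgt
Dnajb1: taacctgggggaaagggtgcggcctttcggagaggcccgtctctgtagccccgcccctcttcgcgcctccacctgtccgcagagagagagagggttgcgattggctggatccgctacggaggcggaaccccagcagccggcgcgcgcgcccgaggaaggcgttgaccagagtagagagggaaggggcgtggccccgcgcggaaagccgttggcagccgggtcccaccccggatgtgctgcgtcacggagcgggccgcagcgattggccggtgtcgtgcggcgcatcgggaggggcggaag
The Hspa1a and Hspa1b windows differed at 4 of 300 positions and held 1 pair each, which began 104 bases before the start. Hspb1 held 2 pairs, beginning 117 and 97 bases before the start. The Hspa5 element began 65 bases before the start. Hsph1 had 2 overlapping windows, each with 3 pairs, of which 2 overlapped in a run of 3 alternating units. No pair was found in the Hspa4 window or in either Dnajb1 window, which says only that these letters are not in these 300 bases.

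Total counts per library were between 5357232 and 6253680 in astrocytes, 9041498 and 12535028 in progenitors, and 5031166 and 10435711 in stem cells. Genes with at least 10 counts numbered 9430 to 11655, 16389 to 17015 and 13368 to 14175, respectively, and the lowest of these was astrocyte a. That library stood apart in other ways: the summed level of 5 mature neuron markers was 4975 CPM against 615.9 to 1858 CPM in the other astrocytes, all 4 above the progenitors (278.6 to 405.6 CPM) and stem cells (261.3 to 456.2 CPM), and that of 5 oligodendrocyte markers was 2869 against 221.8 to 794.7 CPM (CPM, counts scaled to a common library size with TMM factors over all 12 libraries). Most of the neuron sum in astrocytes was Camk2a, at 4052, 1473, 1498 and 459.9 CPM in a to d. Camk2a and Snap25 were higher in every astrocyte library than in every progenitor and stem cell library. Syt1 and Rbfox3 overlapped with progenitors. Prox1 went the other way, at 131.7 to 184.3 CPM in progenitors against 14.8 to 120.6 CPM in astrocytes. Of the markers that define the sorts, Slc1a3, which encodes GLAST, was present in all libraries and lay between 2235 and 3403 CPM in the GLAST-negative progenitors. Nes was at 0 in all astrocytes and in 3 of the 4 stem cell libraries, with 0.521 CPM in stem cell 2, and was at 20, 0.0835, 5.73 and 14 CPM in progenitors a to d, so the transcript of the reporter's gene was near 0 in the stem cells and in progenitor b although both were sorted on that reporter. Progenitors also carried the summed level of 4 oligodendrocyte precursor markers (1618 to 2523 CPM, against 42.9 to 319.9 CPM elsewhere). Beside the main log2 fold changes that rest most on astrocyte a stand those without it.

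Most of the chaperone signal came from Hspa8 and Hsp90ab1, whereas Hspa1a, Hspa1b, Hspb1 and Dnajb1 lay near 0 in some libraries and Hspa1b reached 258.6 CPM in astrocyte a. The 10 genes together took 0.511 to 0.625% of all counts in progenitors, 0.188 to 0.316% in stem cells and 0.221 to 0.435% in astrocytes, so on this scale progenitors did not overlap with either other cell type. On the CPM scale the sum was 4751 ± 353 CPM (SD, n = 4) in progenitors, 2847 ± 740.2 CPM in stem cells and 3434 ± 1364 CPM in astrocytes, where astrocyte a, at 5469 CPM, lay above every progenitor library. Hspa8 and Hsp90ab1 gave on average 70.9% of the sum in progenitors, 68.1% in stem cells and 72.6% in astrocytes. In bulk libraries, fewer expressing cells and less RNA per cell cannot be told apart.

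**Figure D1:**
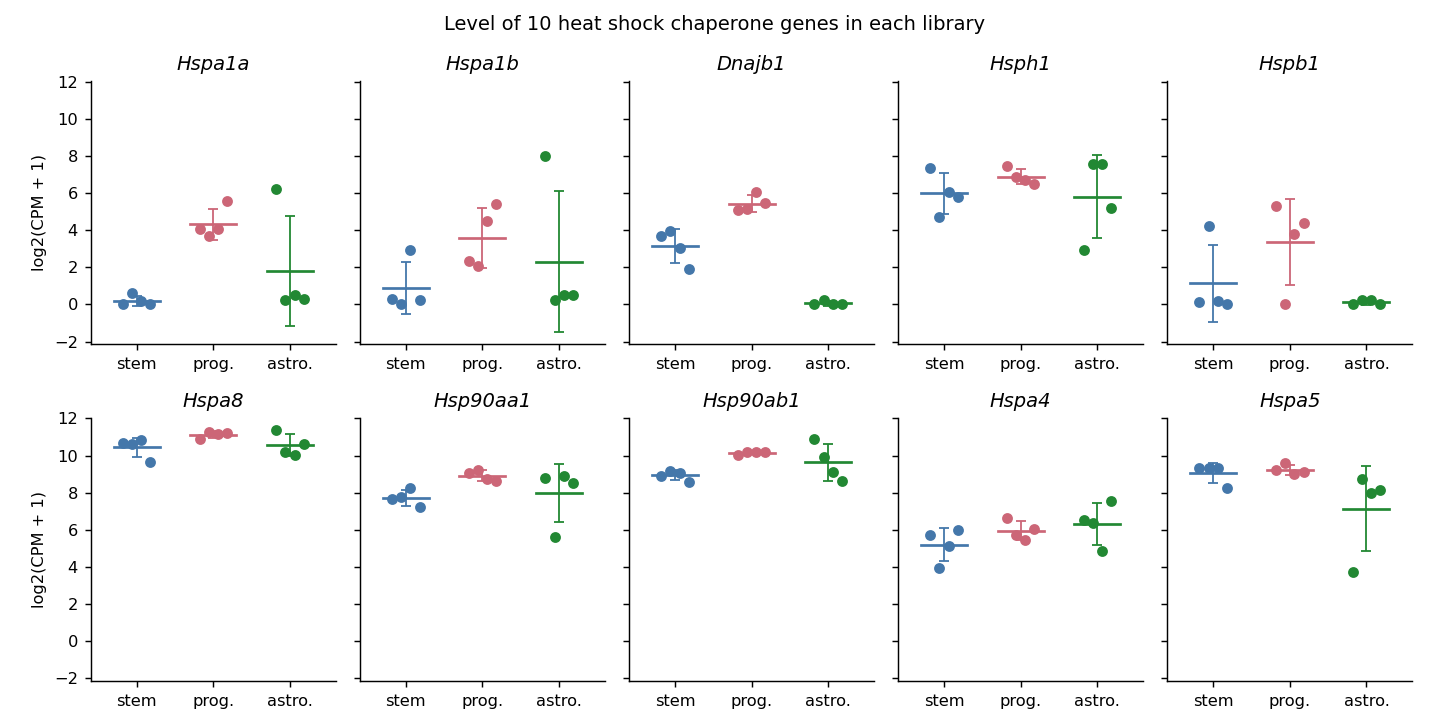
Level of the 10 genes in each library as log2(CPM + 1), with 1 point per library, a line at the mean of the 4 libraries of a cell type and bars of 1 SD. Hspa1a and Dnajb1 separate progenitors from stem cells, Dnajb1 is at or near 0 in all 4 astrocyte libraries, and a single astrocyte library reaches 73.1 CPM of Hspa1a and 258.6 CPM of Hspa1b.

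**Figure D2:**
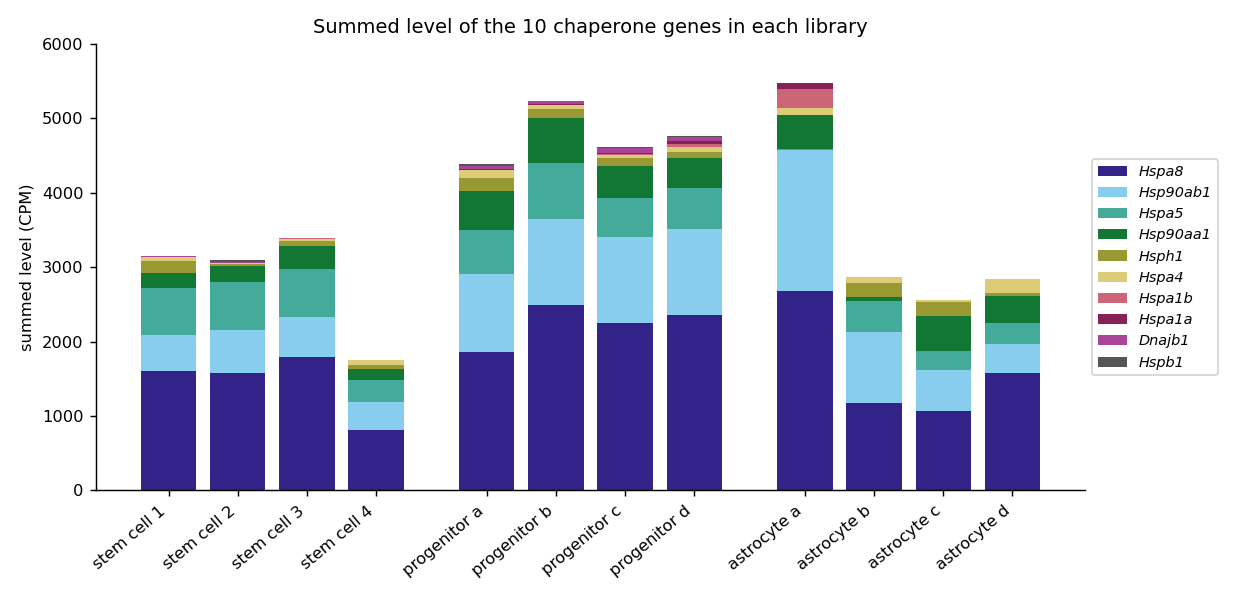
Summed CPM of the 10 genes in each of the 12 libraries, stacked by gene from 0. The progenitor libraries lie between 4392 and 5229 CPM, 3 astrocyte libraries between 2560 and 2867 CPM, and astrocyte a at 5469 CPM with the largest share of Hspa1b.

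In progenitors against stem cells, 4 of the 10 genes were higher in progenitors, namely Hspa1a, Dnajb1, Hsp90aa1 and Hsp90ab1, and none was lower (edgeR's quasi-likelihood test on 8 libraries, adjusted p under 0.05 by the Benjamini-Hochberg method over all genes tested). Among all 15427 genes tested, 4.95% were higher and 3.66% lower in progenitors. The fitted log2 fold change was above 0 for all 10 genes, with a median of 1.14 against 0.04 over all genes tested. In 5 of the 10, these 4 and Hspa8, every progenitor library was above every stem cell library, which holds for 11.8% of all genes tested. That arrangement is also the smallest p of a two-sided exact permutation test of 4 against 4 libraries (0.029), not adjusted over the 30 such tests of 10 genes and 3 comparisons. With all 12 libraries in one fit, so that the spread of the astrocyte libraries entered, none of the 4 passed (adjusted p between 0.14 and 0.43 in edgeR's test), where each of the other comparisons had 1 call.

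Hspa1a, an inducible cytosolic HSP70 encoded at chr17:34969190-34972156 (minus strand, 1 exon), had 228, 140, 168 and 533 counts in progenitors a to d and 0, 4, 1 and 0 counts in stem cells 1 to 4. This gave 15.6, 11.7, 15.5 and 45.8 CPM against at most 0.521 CPM. All 4 progenitor libraries therefore held Hspa1a and none of the stem cell libraries reached 10 counts, and progenitor d was the highest. Hspa1a thus met the filter of 10 counts in 4 libraries through progenitors alone and could be called only as higher there. The log2 fold change was 6.95 (SE 1.25, Benjamini-Hochberg adjusted p = 0.0081 in edgeR's quasi-likelihood test), and it passed in 8 of 8 fits that left out 1 library. As the stem cells held 5 counts in all against 1069, the ratio of the pooled counts was 134.4 with an exact 95% interval of 57.4 to 414.7, which covers counting error only. Hspa1b, the second copy at chr17:34956436-34959238 (minus strand, 1 exon), had 4.11, 3.26, 21.4 and 41.2 CPM in progenitors and 0.205, 0, 6.75 and 0.186 CPM in stem cells. Stem cell 3, with 54 counts, lay within the progenitor range, and Hspa1b did not pass the test (log2 fold change 3.24, SE 1.58, adjusted p = 0.28). Without stem cell 3 it was 6.91 and passed (adjusted p = 0.029), in a fit that Hspa1b entered through progenitors alone. The copies share sequence: 38.1% of the 150-base windows of the Hspa1a transcript occur unchanged in Hspa1b, and 19.0% of the exonic bases of Hspa1a are overlapped by Gm20481 on the opposite strand, which unstranded counting cannot separate. With any other gene, the share of such windows was 46.0% for Hspa1a, 40.5% for Hspa1b, 36.6% for Hspb1, 36.2% for Hsp90aa1 and 22.4% for Hspa8. It was 0.0% for Hspa5, Hsp90ab1, Hsph1, Dnajb1 and Hspa4. How reads that match more than 1 gene were counted is not given in the sources used here. With the copies summed, the log2 fold change was 4.29 (SE 1.24) and missed the threshold (adjusted p = 0.063), since the 54 Hspa1b counts of stem cell 3 then enter the sum.

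Dnajb1, the J-domain partner that delivers substrates to the inducible HSP70 proteins (chr8:83608193-83612653, plus strand, 4 exonic blocks), was at 33.1, 34.2, 65.7 and 42.9 CPM in progenitors and at 12.1, 14.6, 7.13 and 2.79 CPM in stem cells. Every progenitor library was more than 2 times the highest stem cell library, and Dnajb1, unlike Hspa1a, was present in all 8. Its log2 fold change was 2.23 (SE 0.56, adjusted p = 0.036), but 6 of the 8 fits with 1 library left out gave an adjusted p above 0.05 (up to 0.12 without progenitor c), as did the fit without a count filter (0.051). Hsph1, the exchange factor HSP110 (chr5:149614287-149636376, minus strand), ranged from 88.1 to 175.7 CPM in progenitors and from 25.1 to 164.4 CPM in stem cells. These ranges overlapped (log2 fold change 0.61, SE 0.50, adjusted p = 0.56).

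Hspb1, a small heat shock protein that holds unfolded protein and binds actin (chr5:135887919-135889563, plus strand), was at 37.8, 0, 13.1 and 19.7 CPM in progenitors a to d and at 0.103, 18, 0.125 and 0 CPM in stem cells 1 to 4. It was thus absent from 1 progenitor library and present in 1 stem cell library, and did not pass the test (log2 fold change 1.94, SE 1.93, adjusted p = 0.65). Without stem cell 2 the log2 fold change was 7.51 (adjusted p = 0.062). The summed level of 5 mural cell markers was also lowest in progenitor b, but the order of a, c and d was not that of Hspb1. It was 2083 CPM in a, 39.4 in b, 2099.9 in c and 912.2 in d, with Vtn at 944.5, 1.25, 1517 and 782.1 CPM. In the other 8 libraries the mural sum was 32.8 to 191.6 CPM. All 5 markers reached 10 counts in at least 1 progenitor library, and 4 did so in astrocytes and 4 in stem cells. Rgs5 (137.8, 0.251, 269.8 and 58.2 CPM in progenitors a to d) and Kcnj8 (51.5, 0.251, 230 and 17.5 CPM) had the order of Vtn. Acta2 was high in progenitor a alone (841.8, 0.919, 0.554 and 5.07 CPM). Pdgfrb was highest in astrocyte d, at 177.7 CPM against 36.8 to 107.1 CPM in progenitors. Stem cell 2, with Rgs5 at 45.5 CPM, instead had the highest sum of 5 endothelial markers. This sum was 97.0 CPM against at most 7.67 CPM in the other 11 libraries. It came mostly from Flt1 (43.0 CPM) and Cldn5 (36.4 CPM), with Tek at 9.9 and Cdh5 at 7.69 CPM. Pecam1 was at 0 CPM in stem cell 2 and highest in stem cell 1 (7.59 CPM). The part of mural or endothelial RNA in the Hspb1 values was not tested.

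**Figure D3:**
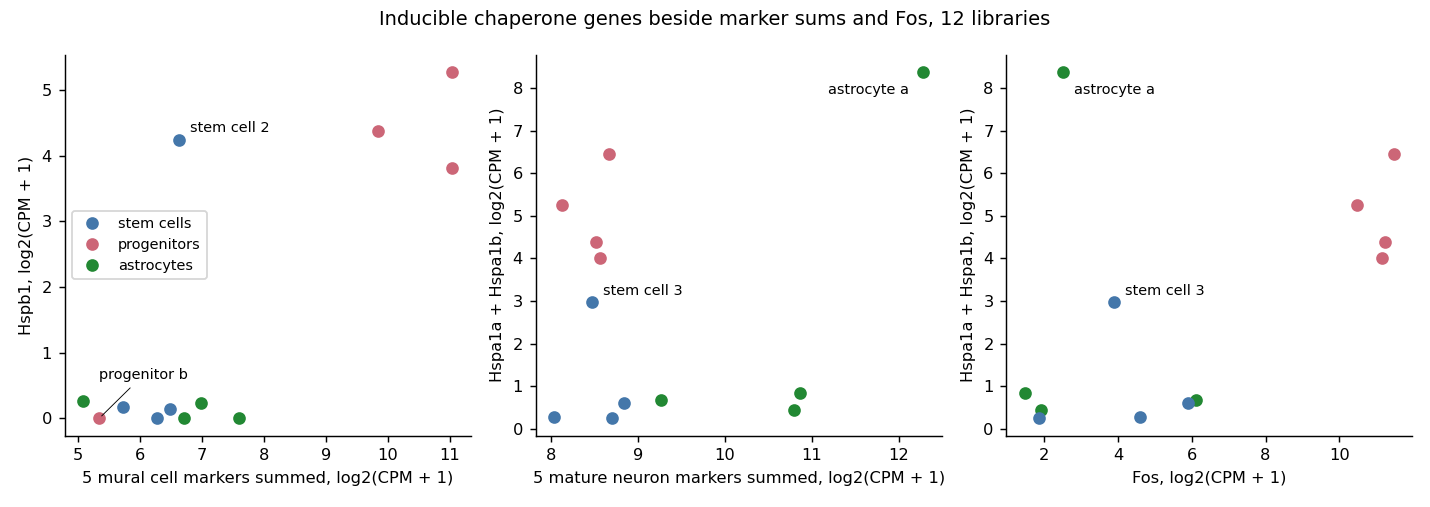
Levels of inducible chaperone genes against other measures in the 12 libraries, 1 point per library, on log2(CPM + 1) axes. Hspb1 is above 10 CPM in the 3 progenitor libraries with high mural marker sums and in stem cell 2 (left), and Hspa1a + Hspa1b is highest in astrocyte a, which has the highest mature neuron marker sum (middle) and a Fos level of 4.69 CPM (right). In astrocytes the neuron marker sum is mostly Camk2a.

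Both cytosolic HSP90 genes rose in progenitors. Hsp90ab1, the constitutive form (chr17:45567775-45573271, minus strand), was at 1044, 1157, 1156 and 1159 CPM in progenitors and at 478.2, 580.3, 539.5 and 383 CPM in stem cells, a log2 fold change of 1.15 (SE 0.15, adjusted p = 0.0020) that held in 8 of 8 fits with a library left out. Hsp90aa1, the more inducible form (chr12:110690605-110702728, minus strand), was at 530.7, 606.3, 430.1 and 397.8 CPM against 203.6, 219.7, 306.6 and 146.9 CPM. Its log2 fold change was 1.13 (SE 0.24, adjusted p = 0.016) and among the fits with a library left out missed the threshold only without progenitor b (adjusted p = 0.051). The ratio of the 2 forms per kilobase of exon (Hsp90aa1 over Hsp90ab1) was 0.262 to 0.400 in progenitors and 0.289 to 0.434 in stem cells. These ranges overlapped. The ratio was not corrected for sequence shared with other genes, 36.2% of the windows of Hsp90aa1 and 0.0% of those of Hsp90ab1.

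The remaining HSP70 genes differed less. Hspa8, the constitutive HSP70 that also uncoats clathrin vesicles (chr9:40800984-40810087, plus strand), was at 1866 to 2487 CPM in progenitors and at 806.5 to 1797.5 CPM in stem cells. The libraries did not overlap, although the log2 fold change of 0.60 (SE 0.22) did not pass the test (adjusted p = 0.15). Hspa4, an exchange factor of the HSP110 family (chr11:53259814-53300457, minus strand), ranged from 42.8 to 96.9 CPM and from 14.6 to 61.5 CPM (log2 fold change 0.63, SE 0.46, adjusted p = 0.51). Hspa5, the chaperone of the endoplasmic reticulum (chr2:34771970-34777547, plus strand), was the member that differed least, at 588.1, 760.2, 515.3 and 546.6 CPM against 629.9, 646.3, 636.6 and 298.8 CPM. Its log2 fold change was 0.09 (SE 0.25, adjusted p = 0.90), and below 0 without stem cell 4 (-0.11) or progenitor b (-0.02).

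**Figure D4:**
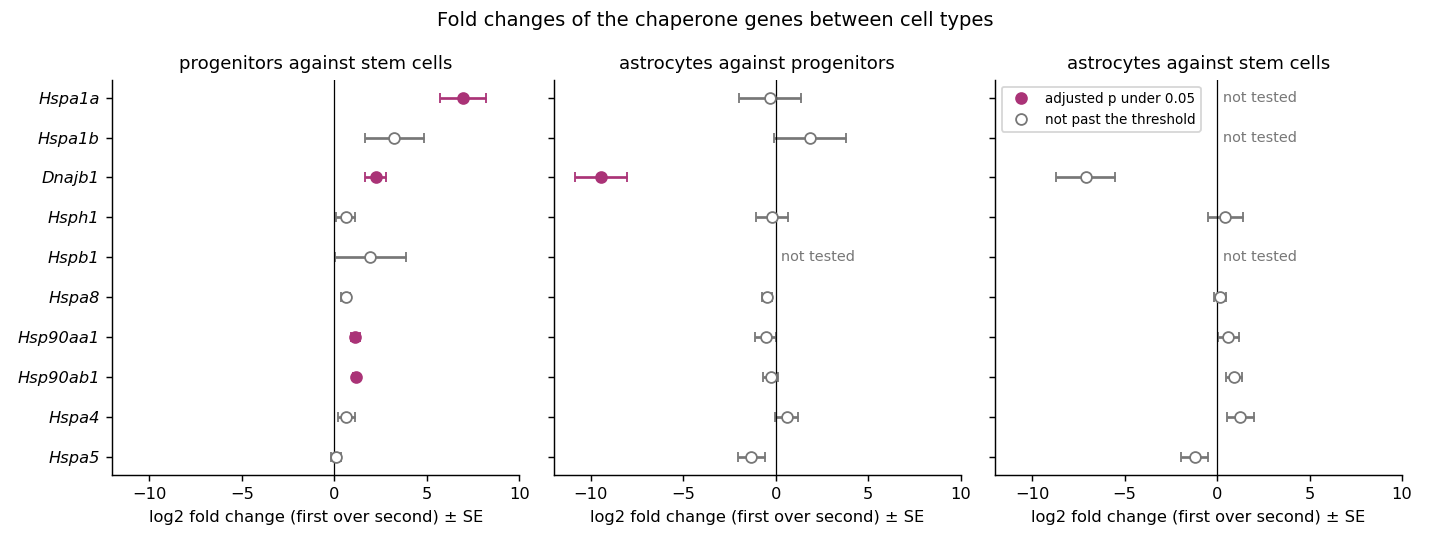
Log2 fold changes of the 10 genes in the 3 comparisons, first named cell type over the second, with bars of 1 SE from edgeR's quasi-likelihood fits. Filled points have an adjusted p under 0.05: 4 genes above 0 in progenitors against stem cells, and Dnajb1 at -9.45 in astrocytes against progenitors.

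In astrocytes against progenitors, Dnajb1 was the one gene of the 9 tested that passed. It had 0, 1, 0 and 0 counts in astrocytes a to d and 483, 410, 711 and 499 counts in progenitors. Dnajb1 thus met the count filter through progenitors alone and could be called only as lower in astrocytes. Astrocytes thus held 1 count of Dnajb1 in all 4 libraries together, while the more abundant Hspa8, Hsp90ab1 and Hsp90aa1 had at least 266 counts in every astrocyte library. The study calls the cDNA quality of its astrocytes suboptimal and warns of signal dropout in such libraries. Whether Dnajb1 was absent from the cells or lost in the libraries was not tested. The fitted log2 fold change was -9.45 (SE 1.39, adjusted p = 0.0073), it passed in 8 of 8 fits with a library left out, and the pooled ratio in favour of progenitors was 863.8 (exact 95% interval 154.9 to 34134.8, counting error only). Over all 14806 genes tested, 6.18% were lower and 2.45% higher in astrocytes. The libraries of 2 genes, Dnajb1 and Hspa5, were all lower in astrocytes, which holds for 15.2% of all genes tested. Hspa5 was at 12.4, 419.6, 248.5 and 276.9 CPM in astrocytes and did not pass (log2 fold change -1.32, SE 0.73, adjusted p = 0.39), nor without astrocyte a (-0.92, SE 0.26, adjusted p = 0.057). Hspb1 had 0, 1, 1 and 0 counts in astrocytes and so did not reach 10 counts in 4 libraries, and was not tested in the main fit. Its pooled ratio was 189.4 in favour of progenitors (exact 95% interval 52.3 to 1565.9). Hspb1 was tested, through progenitors alone, in 5 of the fits with a library left out, and 1 passed (edgeR's adjusted p between 0.044 and 0.090). Among these, the fit without astrocyte a gave a log2 fold change of -6.95 (SE 2.28, adjusted p = 0.090). DESeq2 called Hspb1 on all 8 libraries (-7.47, SE 1.92, adjusted p = 0.0014). It did not pass edgeR's test without a count filter (adjusted p = 0.10) or with all 12 libraries in one fit (0.094). The median log2 fold change of the 9 genes was -0.31 against 0.03 over all genes tested, and without astrocyte a that of 10 genes was -0.87 against -0.13.

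The values of astrocyte a set the calls of Hspa1a, Hspa1b and Hspa8 in this comparison. Hspa1a had 343 counts in astrocyte a (73.1 CPM) and 1, 2 and 1 counts in astrocytes b to d. Hspa1b had 1214 counts (258.6 CPM) against 1, 2 and 2. The single library lay above all progenitors and the other 3 lay below all of them, and with all 8 libraries neither gene passed (log2 fold changes -0.31, SE 1.70, and 1.84, SE 1.96). Without astrocyte a both were lower in astrocytes, with log2 fold changes of -6.32 (adjusted p = 0.018) and -5.66 (adjusted p = 0.041), and Hspa8 then passed as well, at -0.80 (adjusted p = 0.028). In that fit Hspa1a and Hspa1b met the count filter through progenitors alone and could be called only as lower in astrocytes. With all libraries, Hspa8 was at 2686, 1175, 1062 and 1575 CPM in astrocytes a to d (log2 fold change -0.48, SE 0.27, adjusted p = 0.41). Hsp90ab1 was likewise highest in astrocyte a, at 1892, 951.4, 559.6 and 393.5 CPM, with a log2 fold change of -0.27 (SE 0.41) and, without astrocyte a, of -0.81 (SE 0.29, adjusted p = 0.11). In contrast, Hspa5 at 12.4 CPM and Hsph1 at 6.60 CPM were at their lowest in astrocyte a, where the other astrocytes held 35.1 to 190.9 CPM of Hsph1. Astrocyte a therefore combined the highest Hspa1a, Hspa1b, Hspa8 and Hsp90ab1 of all 12 libraries with the lowest Hspa5 and Hsph1 and no count of Dnajb1 or Hspb1. Hsp90aa1 did not follow: it was at 449.2, 48.6, 474.5 and 368.6 CPM, lowest in astrocyte b, and the ratio of Hsp90aa1 to Hsp90ab1 per kilobase ranged from 0.0390 to 0.715 across the astrocyte libraries. Hspa4 was at 91.6, 80.4, 27.5 and 188.5 CPM (log2 fold change against progenitors 0.59, SE 0.63, adjusted p = 0.71). The part of neuronal or oligodendrocyte RNA in the astrocyte values, whose marker sums are given above, was not tested.

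In astrocytes against stem cells, none of the 7 genes tested passed, with 1 at an unadjusted p under 0.05 and 1 called by DESeq2, in both cases Dnajb1. Among all 12831 genes tested, 0.0468% were higher and 0.0% lower in astrocytes, so few genes of any kind were called. At an unadjusted p under 0.05 in edgeR's test were 1226 of these 12831 genes, and DESeq2 called 876 of 25727 genes. Dnajb1 was again the gene whose libraries did not overlap, lower in all 4 astrocyte libraries, an arrangement found for 6.28% of all genes tested. It met the count filter through stem cells alone and could be called only as lower in astrocytes. Its log2 fold change was -7.09 (SE 1.59, adjusted p = 0.092 by edgeR's test) and the pooled ratio in favour of stem cells was 197.4 (exact 95% interval 35.2 to 7821.5). With all 12 libraries in one fit it was -7.17 and passed (adjusted p = 0.013). Hspa5 had a log2 fold change of -1.21 (SE 0.72), Hsp90ab1 of 0.93 (SE 0.44) and Hspa4 of 1.26 (SE 0.74) (adjusted p = 0.68, 0.54 and 0.67). Without astrocyte a these were -0.83 (SE 0.34), 0.34 (SE 0.31) and 1.28 (SE 0.75), and Dnajb1 was at -6.83 (SE 1.83, adjusted p = 0.16). Hspa1a, Hspa1b and Hspb1 did not reach 10 counts in 4 of the 8 libraries and were not tested.

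Divided by exon length, the mean level was highest for Hspa8 in every cell type, at 521.2 ± 62.3 CPM per kilobase (SD, n = 4) in progenitors, 336.2 ± 101.8 in stem cells and 377.7 ± 172.3 in astrocytes. Hsp90ab1 was next in each (376.5 ± 19.0, 165.1 ± 28.6 and 316.5 ± 223.6). In progenitors the leading ranks were separated, since every library's Hspa8 lay above every Hsp90ab1 value and every Hsp90ab1 above every Hspa5 value (142.5 ± 25.8), whereas Hspa5 and Hsp90aa1 (125.0 ± 24.2) overlapped. In stem cells the ranges of Hspa8, Hsp90ab1, Hspa5 (130.7 ± 40.1) and Hsp90aa1 (55.8 ± 16.8) each overlapped with the next, although within each of the 4 libraries the order was the same. Below Hsp90aa1 the mean level was at most 17.1 CPM per kilobase in progenitors and 10.7 in stem cells, and neighbours in the order overlapped: Hspb1, Hsph1, Dnajb1, Hspa4, Hspa1a and Hspa1b ran from 17.1 ± 15.3 to 6.24 ± 6.38 in progenitors, and Hsph1, Hspa4, Hspb1, Dnajb1, Hspa1b and Hspa1a from 10.7 ± 8.32 to 0.0545 ± 0.0832 in stem cells. In astrocytes Hspa8 lay above Hsp90ab1 in 2 of 4 libraries, and only Hsp90ab1 and Hsp90aa1 (85.3 ± 49.9) were neighbours without overlap. The inducible copies were a minor part of cytosolic HSP70 as counted: Hspa1a and Hspa1b gave 0.875 to 5.21% of the per-kilobase sum of Hspa1a, Hspa1b and Hspa8 in progenitors, 0.0196 to 0.583% in stem cells, 0.0464 to 0.111% in astrocytes b to d, and 15.8% in astrocyte a. These shares were not corrected for sequence shared with other genes, 46.0% of the windows of Hspa1a, 40.5% of those of Hspa1b and 22.4% of those of Hspa8.

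Few genes of the wider chaperone network passed the test. The network was described by 113 other genes in 9 lists. Of the 101 tested in progenitors against stem cells, 4 were higher and 1 lower in progenitors, where the shares over all genes were 4.95% and 3.66%, and the median log2 fold change was 0.10. Of these 4, 3 were subunits of the cytosolic chaperonin, which folds actin and tubulin. Cct5 was at 510.4 ± 42.4 CPM against 189.6 ± 104 CPM (log2 fold change 1.40, SE 0.36, adjusted p = 0.038), Cct6a at 240.1 ± 42.0 against 118.2 ± 7.89 CPM (0.98, SE 0.19, adjusted p = 0.0099) and Cct4 at 195.4 ± 27.6 against 100.5 ± 30.0 CPM (0.92, SE 0.25, adjusted p = 0.049). These were 3 of the 14 genes in the list of chaperonin and prefoldin subunits, whose median was 0.52. Of the J-domain proteins, 1 of 19 was higher, the HSP70 partner Dnaja1 (0.73, SE 0.19, adjusted p = 0.045), and 1 was lower, Dnajb9 of the endoplasmic reticulum (-1.07, SE 0.28, adjusted p = 0.043). With a library left out, Cct6a passed in 8 of 8 fits, Cct5 in 3, Cct4 and Dnaja1 in 1 and Dnajb9 in 0. In the other 7 lists (other HSP70 and HSP110 genes, other HSP90 genes and co-chaperones, exchange factors and BAG proteins, other small heat shock proteins, heat shock factors, mitochondrial chaperones, and folding and unfolded protein response genes of the endoplasmic reticulum) edgeR called 0 genes of 7, 17, 10, 4, 3, 7 and 20, with 1, 5, 2, 0, 0, 2 and 6 at an unadjusted p under 0.05, and DESeq2 called 1, 2, 1, 0, 0, 1 and 2. Over all genes, 3278 of 15427 were at an unadjusted p under 0.05 in edgeR's test, and DESeq2 called 3091 of 26218. Hsf1, the transcription factor of the heat shock response, was at 55.1 to 77.3 CPM in progenitors and 53.3 to 77.9 CPM in stem cells.

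In astrocytes against progenitors, 4 of 101 genes of the network were lower and none higher, where 6.18% of all genes were lower and 2.45% higher. Pdia6, a disulphide isomerase of the endoplasmic reticulum, was at 172.4 ± 47.3 against 540.7 ± 142 CPM (log2 fold change -1.65, SE 0.32, adjusted p = 0.016). Sdf2l1, a luminal partner of Hspa5, had 2 counts in astrocytes against 1418 in progenitors, a pooled ratio of 291.2 (exact 95% interval 80.5 to 2407.1). Of the small heat shock proteins, Hspb6 had 5 counts against 961 (ratio 78.9, exact 95% interval 33.7 to 243.7). Hspb11, which despite its name is a subunit of the intraflagellar transport complex, had 0 counts in astrocytes against 501, so that it was at least 68.6-fold higher in progenitors when 3 counts are set for the whole astrocyte group. Pdia6, Sdf2l1 and Hspb11 passed in 8 of 8 fits with a library left out and Hspb6 in 4. Hspb6, Hspb11 and Sdf2l1 had at most 4, 0 and 1 counts in an astrocyte library. They met the count filter through progenitors alone and could be called only as lower in astrocytes. In astrocytes against stem cells, edgeR called none of 97 genes, with 10 at an unadjusted p under 0.05 and 6 called by DESeq2. Over all genes these were 1226 of 12831 and 876 of 25727.

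The early response transcription factors, which are induced within minutes of a stimulus, were set beside the chaperones for comparison. Of the 11 tested, 8 were higher in progenitors than in stem cells, where 4.95% of all genes tested were higher. Among them were Fos, at 1436 to 2858 CPM against 2.6 to 58.9 CPM, and Jun, at 755.7 to 1031 against 43.0 to 79.3 CPM. Against astrocytes, 7 of 12 were higher in progenitors, where 6.18% of all genes tested were. In astrocytes against stem cells, edgeR called none of 6, with 2 at an unadjusted p under 0.05 and 1 called by DESeq2 (1226 of 12831 and 876 of 25727 over all genes). Egr1, Egr2, Nr4a1 and Fosb were at most at 0.929, 0, 0.391 and 1.13 CPM in stem cells. Egr1, Egr2, Nr4a1 and Ier2 had at most 9, 1, 2 and 3 counts in an astrocyte library. These genes met the count filter of the respective test through progenitors alone and could be called only as higher there. Astrocyte a, with 331.6 CPM of Hspa1a and Hspa1b together, held 4.69 CPM of Fos, 1.70 CPM of Jun and 1.06 CPM of Egr1, and 36.0 CPM of Fosb against at most 1.83 CPM in the other astrocytes. Astrocyte d held the most Fos of that group, 68.8 CPM, with 0.613 CPM of Hspa1a and Hspa1b. Among progenitors a to d, Fos was at 2434, 2293, 1436 and 2858 CPM where Hspa1a and Hspa1b together were at 19.8, 15.0, 37 and 87.0 CPM, so progenitor d was the highest in both. In stem cells 1 to 4, Fos was at 23.2, 58.9, 13.9 and 2.6 CPM and Hspa1a and Hspa1b together at 0.205, 0.521, 6.88 and 0.186 CPM.

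**Figure D5:**
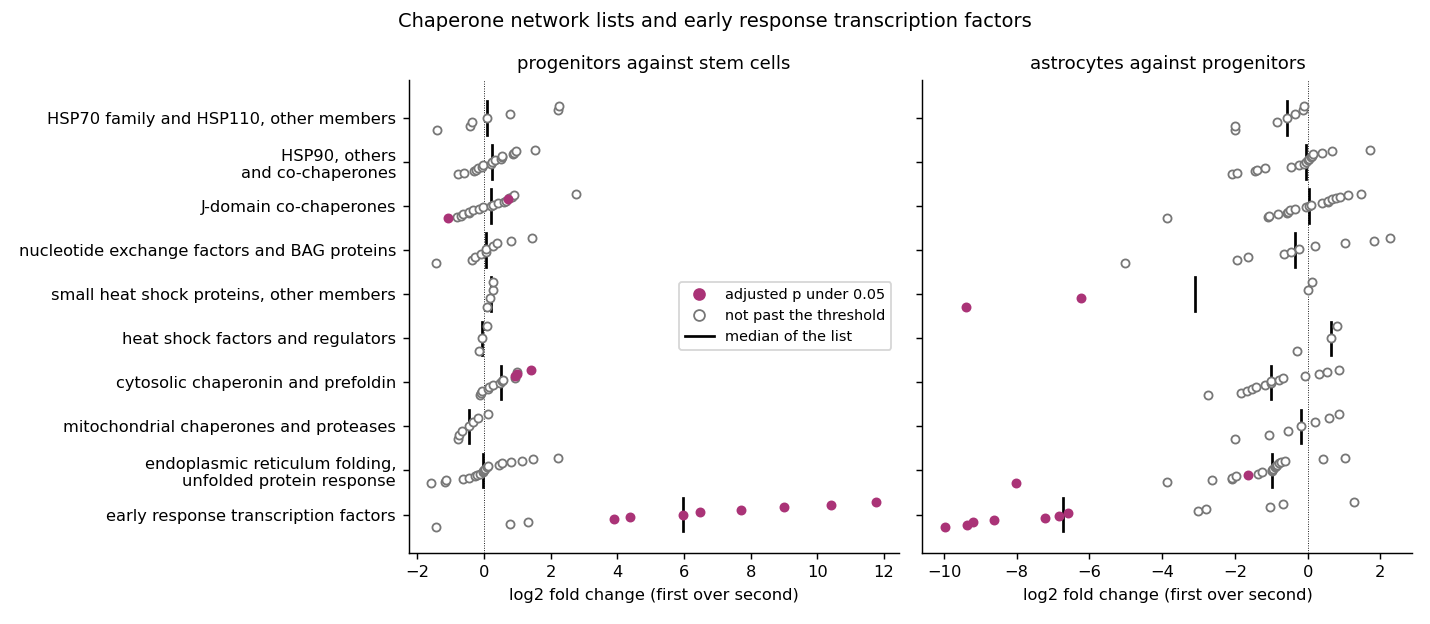
Log2 fold changes of the tested genes of 9 chaperone network lists and of the early response transcription factors, for progenitors against stem cells (left) and astrocytes against progenitors (right). Each point is a gene, filled where the adjusted p is under 0.05, and black lines are list medians. On the left, 8 of 11 early response genes are filled against 5 of 101 network genes, where 1327 of 15427 genes were called over all.

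The genes whose level was most like that of Hspa1a and Hspa1b summed, by Pearson's r of log2(CPM + 1) over the 12 libraries among 5622 genes with at least 10 counts in each, were Rpl13 (0.91), Usp22 (0.90), Ywhaq (0.90), Cep170 (0.90) and Ftl1 (0.89). Of the chaperones, Hsp90ab1 stood at rank 20 (0.86), Hspa8 at rank 40 (0.82), Hsp90aa1 at rank 504 (0.57), Hspa4 at rank 1823 (0.21), Hsph1 at rank 4246 (-0.36) and Hspa5 at rank 4622 (-0.46). After the mean of each cell type was taken off, the leading genes were Slc25a27 (0.96), Larp4b (0.94), Map4k2 (0.93), Akr1e1 (0.93) and Eif3c (0.92), with Hspa5 at rank 5523 (-0.87). Astrocyte a held the highest level of Hspa1a and Hspa1b together, and the values were computed again over the other 11 libraries, an alternative added after the values were seen. The leading genes were then Epn2 (0.93), Actg1 (0.92), Tmem255b (0.91), Usp22 (0.91) and Stmn1 (0.91), the first 5 of the 12-library order stood between ranks 4 and 33, Hspa8 at rank 66 and Hsp90ab1 at rank 72 (0.79 each), and Hspa5 turned from -0.46 to 0.47 and Hsph1 from -0.36 to 0.18. After the mean of each cell type was taken off, r without astrocyte a was 0.39 for Hspa8, 0.13 for Hsp90ab1 and 0.03 for Hspa5. All of these are descriptions over libraries that share their cell types.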

How the data were processed

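RNA of 12 libraries was sequenced by the authors as paired reads of 150 bases. They trimmed adapters with AdapterRemoval 2.2.0, discarded what matched rRNA, mtDNA or PhiX, aligned the remainder to GRCm38p4 with HISAT2 2.0.6 and used featureCounts (Subread 1.5.1, unstranded) on the GENCODE M14 annotation. The deposited values are raw counts per gene, with no molecular identifiers named, so intervals cover counting error only. Gene names, coordinates and exon lengths come from GENCODE M21 on GRCm38 (50376 of 50600 rows matched). Stem cell columns are numbered, and the other columns, which have no number, were lettered in column order. The lowest chi-square per degree of freedom between libraries of a cell type was 56.4, so no library was a duplicate.

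Each pair of cell types was fitted on its 8 libraries with edgeR 4.0.16 in R 4.3.3 (TMM, quasi-likelihood test, at least 10 counts in at least 4 libraries, or 3 with a library left out, Benjamini-Hochberg threshold 0.05). The steps were tested on simulated data. Alternatives were size factors as in DESeq2, DESeq2 1.42.0 itself (the tool of the study, there after a coverage filter not applied here), no filter on counts, a minimum of 10 counts in all 8 libraries, one fit of all 12 libraries, thinned counts, Hspa1a and Hspa1b summed, and each library left out. Levels and sequences were computed with Python 3.11.15, pandas 2.3.3 and scipy 1.17.1. The genes named are the 10 chaperones, at most 4 passing genes per list and comparison, the 5 genes most like Hspa1a and Hspa1b on each measure (also, as an alternative added after the data were seen, without astrocyte a), and markers, Hsf1 and early response genes beside a result, the last chosen after their values were seen. The members and lists were chosen with earlier results of these data known.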

Additional observations from a re-analysis of the deposited data

Results flagged for a closer look

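Within a cell type, 7 values of single libraries stood apart from the other 3 (Dixon's test at its 95% critical value for 4 libraries), among 28 sets of 4 libraries with more than 3 counts in some library. For normally distributed values, chance alone flags about 1 set in 20. The test was run on CPM without a log transform, and several sets lay near 0. That rate therefore need not hold here. In astrocytes these were Hspa1a at 73.1 CPM and Hspa1b at 258.6 CPM in astrocyte a, where the other 3 libraries had at most 0.395 and 0.408 CPM. In progenitors they were Hspa1a at 45.8 CPM in progenitor d, against 11.7 to 15.6 CPM, and Hsp90ab1 at 1043.6 CPM in progenitor a, which was below the narrow range of 1156 to 1159.2 CPM in the others. In stem cells they were Hspa1b at 6.75 CPM in stem cell 3, Hspb1 at 18 CPM in stem cell 2 and Hspa5 at 298.8 CPM in stem cell 4, where the others held 629.9 to 646.3 CPM of Hspa5. Stem cell 4 was also the library of lowest total count, and its Hspa8 (806.5 CPM) and Hsp90ab1 (383 CPM) were the lowest of its group.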

How the results depend on the processing

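No paired analysis was possible because the astrocyte and progenitor columns carry no replicate numbers. Of the single-gene results of the 10 chaperones, 164 of 171 kept their direction and side of the threshold under the alternatives that used all libraries, none reversed, 2 passed newly and 5 were lost. Most of the 171 were not called in the main fit. They leave out the result for Hspa1a and Hspa1b summed, which missed the threshold in progenitors against stem cells (adjusted p = 0.063 in edgeR's test). The other genes are counted under that setting, here and in the numbers of alternatives below, although it barely changes their fits. In progenitors against stem cells, Hspa1a passed in 4 of 5 alternatives, Hsp90aa1 and Hsp90ab1 in 6 of 7 each, and Dnajb1 in 5 of 7. Dnajb1 passed in 6 of 6 in astrocytes against progenitors. With all 12 libraries in one fit, the members called became 0 in progenitors against stem cells (from 4), stayed 1 in astrocytes against progenitors, and became 1 in astrocytes against stem cells (from 0), while those of the wider list became 0 (from 5), 9 (from 4) and 2 (from 0). DESeq2 called 2 and 1 members in the comparisons of astrocytes with progenitors and stem cells, and 16, 12 and 6 genes of the wider list in the 3 comparisons. Without a count filter the wider list had 2 calls in each of the first 2 comparisons. With at least 10 counts in every library it had 11 in progenitors against stem cells, and 0 members were called in astrocytes against progenitors, since Dnajb1 was no longer tested. Over all genes, 1327 of 15427, 1278 of 14806 and 6 of 12831 were called, and DESeq2 called 3091 of 26218, 2968 of 27810 and 876 of 25727. The one fit gave 381 and 346 in the first and last comparison, no filter 529 and 16 in the last 2, and the stricter filter 287 and 12. On plain library totals the summed level of the members was higher in progenitors than in stem cells by 2896 CPM (1904 with TMM), and the difference of astrocytes minus progenitors was -2734 CPM (-1317 with TMM). With the longest transcript in place of exon length, 26 of 30 ranks by level per kilobase were the same.

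With each library left out in turn, members called ranged from 2 to 4 in progenitors against stem cells (2 without progenitor b), from 1 to 4 in astrocytes against progenitors (4 without astrocyte a) and were 0 in astrocytes against stem cells. The wider list ranged from 1 to 5 (1 without any single progenitor library), from 3 to 9 (9 without astrocyte d, 7 without astrocyte a) and stayed at 0. The log2 fold change turned its sign for Hspa5 in progenitors against stem cells (-0.11 to 0.18), for Hspa1a (-6.32 to 0.38), Hspa1b (-5.66 to 2.77) and Hsph1 (-0.64 to 0.21) in astrocytes against progenitors, and for Hspa8 (-0.20 to 0.30) and Hsph1 (-0.03 to 1.11) in astrocytes against stem cells. Without astrocyte a the summed level of astrocytes minus progenitors was -1996 CPM, and that of astrocytes minus stem cells -91.5 CPM in place of 586.9. The likeness (Pearson's r) of Hspa5 and Hsph1 to Hspa1a and Hspa1b summed turned from -0.46 to 0.47 and from -0.36 to 0.18 without astrocyte a, a setting added after the data were seen. The cause of these changes was not tested. Depth limits the fold of Hspa1a, Hspb1 and Dnajb1, which have groups with at most 5 counts in all. The part of signal dropout in these folds, and in those of Sdf2l1, Hspb6 and Hspb11, was not tested.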
